A study of Homo sapiens with 6 samples.

Results

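The translation elongation factor mRNAs were measured in extracellular vesicles (EVs) released by T cells that have or lack CD47. WT EVs came from the Jurkat line (JK in the labels), a human T cell leukemia line with the genotype CD47_WT, and CD47- EVs came from JinB8, a somatic mutant of Jurkat with the genotype CD47_mut. JinB8 is 1 mutant line, so the loss of CD47 and any other difference between the lines cannot be told apart. Both lines were cultured for 24 to 48 h in serum-free HITES medium, total RNA was extracted from the EVs, and 300 ng per sample was labeled for Affymetrix human gene arrays, with 3 arrays in each group. The labels name Exo-quick and Exo-spin for EV isolation without assigning a kit to a sample, and they describe the samples as cell culture replicates without saying whether the cultures were separate, so the spread between arrays may be technical.

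The members were all probe sets that the platform annotation lists with exactly 1 gene symbol, where that symbol is EEF1A1, EEF1A2, EEF1B2, EEF1D, EEF1E1, EEF1G, EEF2 or EEF2K. This rule gave 9 probe sets out of 33297 on the array, and they covered 7 of the 8 genes, among 18417 genes with such a probe set. EEF1A1 and EEF1D had 2 probe sets each, EEF1A2, EEF1B2, EEF1G, EEF2 and EEF2K had 1 each, and EEF1E1 had none listed with its symbol alone. No filter on low values was applied, so all 9 were tested.

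Elongation is the step of translation in which the ribosome adds amino acids to the growing protein. The eEF1A protein, encoded by EEF1A1 or by its paralog EEF1A2, carries each aminoacyl-tRNA to the ribosome as a complex with GTP. The eEF1B subunits encoded by EEF1B2 and EEF1D recharge eEF1A with GTP, and EEF1G encodes the subunit that anchors them. EEF2 then moves the ribosome along the mRNA, and the kinase encoded by EEF2K phosphorylates and inhibits EEF2. EEF1E1 encodes an auxiliary protein of the complex of aminoacyl-tRNA synthetases. Several mRNAs of elongation factors and ribosomal proteins are known to begin with a 5′ terminal oligopyrimidine (TOP) motif, a C at the cap followed by a run of C and T bases, through which mTOR signaling controls their translation.

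The annotated transcription starts are shown because elongation factor mRNAs are textbook examples of TOP mRNAs, and starts with and without the motif were found among both the called and the uncalled members. RefSeq promoter sequences (GRCh38.p14) were found for EEF1A1, EEF1B2, EEF1E1, EEF1G, EEF2 and EEF2K, and were not listed for EEF1A2 and EEF1D. Each line gives the 15 bases before and the 15 bases from the annotated start on, read 5′ to 3′ on the strand of the gene, with the unbroken run of C and T that begins at the start in capitals.
EEF1A1, chr6:73521018-73521047, minus strand: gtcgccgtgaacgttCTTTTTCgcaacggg
EEF2, chr19:3985449-3985478, minus strand: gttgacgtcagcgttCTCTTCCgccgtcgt
EEF1B2, chr2:206159880-206159909, plus strand: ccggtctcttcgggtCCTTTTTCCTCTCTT
EEF1G, chr11:62573877-62573906, minus strand: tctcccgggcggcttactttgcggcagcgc
EEF2K, chr16:22206263-22206292, plus strand: tgcccgcccgcttctgctcaacctagacca
The motif was searched on the gene strand as a C at the annotated start with at least 4 more C or T bases after it, which makes a run of 5 or more. EEF1A1 and EEF2 each had such a run of 7 bases and the downstream start of EEF1B2 had one of 16 bases, of which 15 are printed. The other annotated start of EEF1B2 and those of EEF1E1, EEF1G and EEF2K had none. EEF1G instead had an unbroken run of 29 pyrimidines, CTCTCCTCTTTCCCCCTCCCTTCTCTCCC (chr11:62573901-62573929), with 9 bases between it and the annotated start. A run of that length or more within 50 bases of the start was present in 0.208% of all annotated starts. The TOP motif was present at 4.07% of the 35116 annotated starts. At least 1 start with it was listed for 5.14% of all 27305 genes and for 47 of 63 cytosolic ribosomal protein genes with a listed promoter. A match describes these letters and does not show which start the EV mRNAs used.

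In CD47- EVs, the mRNAs for EEF1G, EEF2 and EEF1A1 were higher than in WT EVs, by 2.11-fold, 1.86-fold and 1.85-fold. Of the 9 probe sets, 4 were higher (both of EEF1A1 and those of EEF1G and EEF2), none was lower and 5 did not pass at an adjusted p under 0.05 from limma, adjusted over all 33297 probe sets. Over the whole array, 0.523% of probe sets were called higher and 0.021% were called lower. The median log2 fold change of the 9 was 0.22, and that of all probe sets was -0.0018. The count of 4 was also reached without WT replicate 2. It was 1 (EEF1G) without any 1 CD47- array and 0 without WT replicate 1 or WT replicate 3. These are relative levels within the RNA of EV preparations assayed in bulk. More EVs that carry an mRNA and more copies per EV therefore cannot be told apart, nor can a difference in the cells that released the EVs and in RNA per cell.

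**Figure D1:**
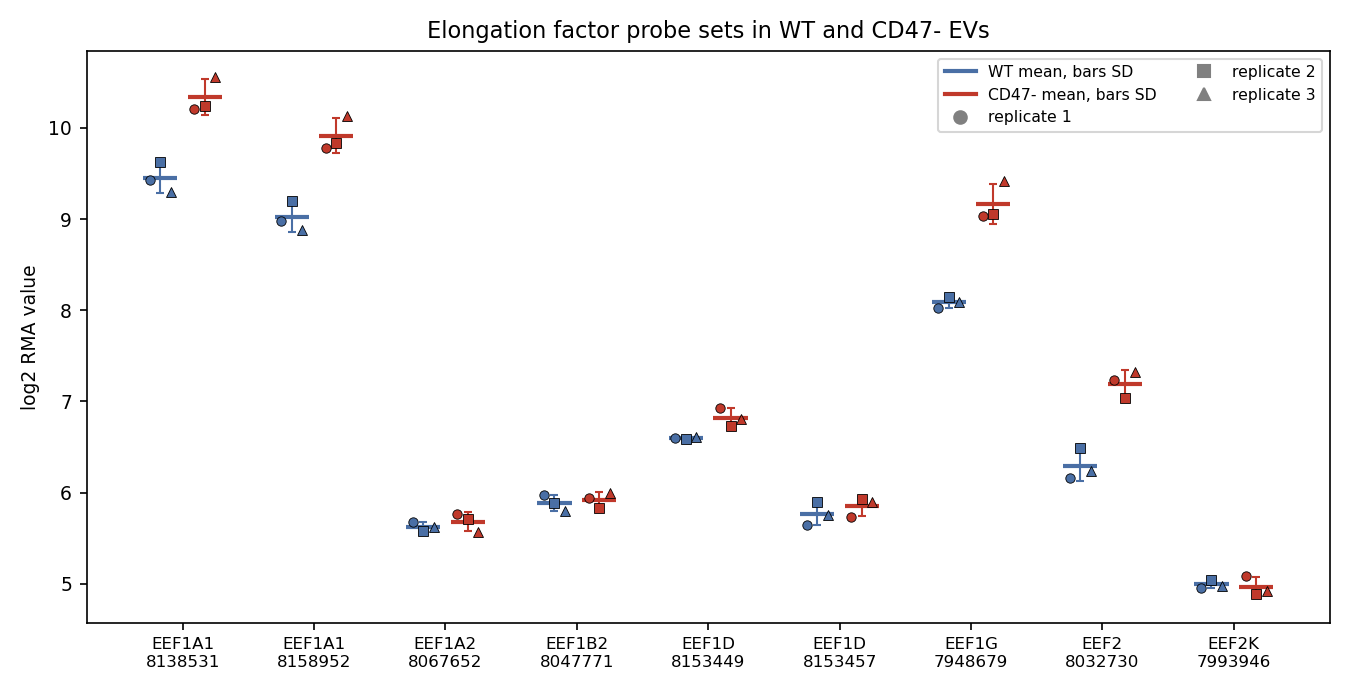
log2 RMA value (vertical axis) of each elongation factor probe set (horizontal axis, gene and probe set number) in the 3 WT and 3 CD47- arrays, with 1 symbol per replicate, a bar at each group mean and error bars of 1 SD. For EEF1A1, EEF1G and EEF2 all CD47- points lie above all WT points, while the groups of EEF1A2, EEF1B2 and EEF2K overlap.

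EEF1A1, which encodes the form of eEF1A made in most tissues, was measured by probe sets 8138531 and 8158952. On probe set 8138531 the log2 values were 9.43, 9.62 and 9.30 in WT EVs and 10.21, 10.24 and 10.56 in CD47- EVs. On probe set 8158952 they were 8.98, 9.20 and 8.88 in WT EVs and 9.78, 9.83 and 10.13 in CD47- EVs. The groups did not overlap on either, and WT replicate 2 and CD47- replicate 3 were the highest of their groups on both. The annotation lists the same 20 transcript accessions for both probe sets, and their values differed by 0.42 to 0.45 in every array, so they are not independent measurements. The log2 fold changes were 0.89 (standard error 0.12, 95% interval 0.60 to 1.17, adjusted p = 0.031 from limma) and 0.90 (standard error 0.12, adjusted p = 0.0306 from limma). Probes for EEF1A1 can also match its processed pseudogenes. Neither probe set passed when any 1 array other than WT replicate 2 was left out or after a further quantile normalization. Without CD47- replicate 1, 2 or 3 the adjusted p of probe set 8138531 was 0.0651, 0.1 or 0.088, and without WT replicate 1 or 3 it was 0.112 (limma). For probe set 8158952 these values were 0.0615, 0.1, 0.0877 and again 0.112 (limma), and after quantile normalization the adjusted p was 0.0913 and 0.097 (limma).

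EEF1A2, the paralog that adults make mainly in muscle and neurons, gave log2 values of 5.68, 5.58 and 5.62 in WT EVs and 5.77, 5.71 and 5.57 in CD47- EVs. The groups overlapped, and CD47- replicate 3, the highest array for EEF1A1, was the lowest for EEF1A2. The log2 fold change was 0.05 (95% interval -0.13 to 0.23, adjusted p = 0.951 from limma), or between 0.911-fold and 1.18-fold for the signal of this probe set. Background was gauged by olfactory receptor genes, whose mRNAs are not normally found in T cells. The mean of EEF1A2 was higher than those of 57.4% of their 357 probe sets, so it was not separated from background, and the interval does not limit the change of the mRNA.

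Of the subunits of eEF1B, EEF1G was called and EEF1B2 and EEF1D were not, and the difference of EEF1G from the other subunits was not tested. EEF1G, the anchoring subunit, gave log2 values of 8.03, 8.15 and 8.09 in WT EVs and 9.03, 9.05 and 9.42 in CD47- EVs. All 3 CD47- arrays were at least 0.88 above the highest WT array. Its log2 fold change of 1.08 (standard error 0.12, 95% interval 0.81 to 1.35, adjusted p = 0.0128 from limma) was the largest of the 9 probe sets, and 99.6% of all probe sets on the array had a smaller one. EEF1G was no longer called without WT replicate 1 (adjusted p = 0.0617 from limma) or without WT replicate 3 (adjusted p = 0.0671 from limma), while its log2 fold change in those fits was 1.05 and 1.08.

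EEF1B2, one of the 2 subunits that exchange the nucleotide on eEF1A, gave log2 values of 5.98, 5.89 and 5.80 in WT EVs and 5.94, 5.83 and 6.0 in CD47- EVs. The groups overlapped, and the log2 fold change was 0.03 (95% interval -0.16 to 0.22, adjusted p = 0.975 from limma). Of the olfactory receptor probe sets, 67.5% had a lower mean than EEF1B2, so it was not separated from background. Among the 6 members with a listed promoter, EEF1B2 had the longest run of pyrimidines from an annotated start.

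EEF1D, the other exchange subunit, gave log2 values of 6.60, 6.59 and 6.61 in WT EVs and 6.93, 6.73 and 6.81 in CD47- EVs on probe set 8153449. The groups did not overlap, and the 3 WT arrays lay within 0.02 of each other. The log2 fold change was 0.22 (95% interval 0.04 to 0.39), which in limma had a p of 0.0229 before adjustment and 0.471 after it and did not pass. Probe set 8153457, which the annotation ties to 1 other accession and none of the 17 of the first, gave 5.65, 5.90 and 5.75 in WT EVs and 5.73, 5.93 and 5.90 in CD47- EVs. Those groups overlapped, at a log2 fold change of 0.08 and an adjusted p = 0.921 (limma). Only 63.3% of the olfactory receptor probe sets had a lower mean than probe set 8153457, so it was not separated from background.

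EEF2, the translocation factor, gave log2 values of 6.16, 6.49 and 6.24 in WT EVs and 7.23, 7.04 and 7.32 in CD47- EVs. The lowest CD47- array was 0.54 above the highest WT array, and WT replicate 2 and CD47- replicate 3 were again the highest of their groups. The log2 fold change was 0.90 (standard error 0.11, 95% interval 0.63 to 1.16, adjusted p = 0.0234 from limma). Of the olfactory receptor probe sets, 93.6% had a lower mean than EEF2. All its WT values lay below their 95th percentile of 6.78, so the WT signal was not clearly separated from background. EEF2 did not pass when any 1 array other than WT replicate 2 was left out. Its adjusted p was 0.0812 without WT replicate 1, 0.0999 without WT replicate 3, and 0.0787, 0.0574 and 0.0981 without CD47- replicates 1, 2 and 3 (limma), with log2 fold changes from 0.83 to 0.99 over the 6 fits without 1 array.

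EEF2K, the kinase that inhibits EEF2, gave log2 values of 4.96, 5.04 and 4.98 in WT EVs and 5.09, 4.89 and 4.92 in CD47- EVs. The groups overlapped, and the log2 fold change was -0.03 (95% interval -0.22 to 0.15, adjusted p = 0.977 from limma). Centering each array on the olfactory receptor probe sets turned the value to 0.03. Of the olfactory receptor probe sets, 33.9% had a lower mean than EEF2K, so EEF2K was not separated from background either.

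**Figure D2:**
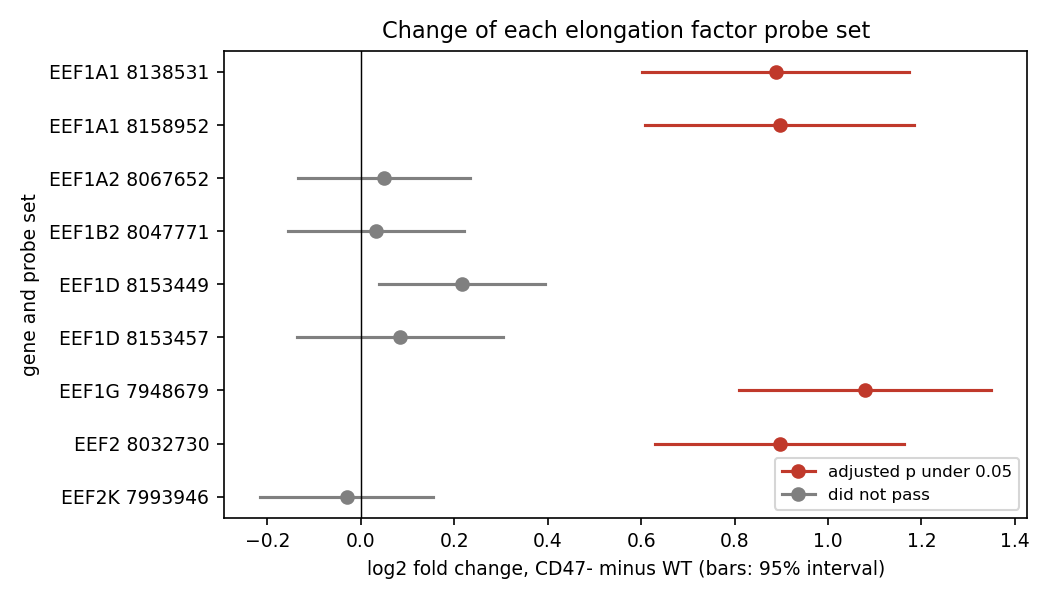
log2 fold change of each elongation factor probe set (horizontal axis, CD47- minus WT; points, limma estimates; lines, 95% intervals; vertical axis, gene and probe set number). The intervals of EEF1A1, EEF1G and EEF2 (red, adjusted p under 0.05) lie between 0.60 and 1.35, and of the 5 probe sets that did not pass (grey) that of EEF1D 8153449 alone excludes 0.

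Because a call for 1 gene and none for another does not show that they differ, the change of related members was compared within arrays for 3 pairs, each gene taken as its probe set with the highest mean. The log2 value of EEF1A1 minus that of EEF1A2 was 3.74, 4.04 and 3.68 in WT EVs and 4.45, 4.54 and 4.99 in CD47- EVs, a shift of 0.84 (SD between replicates 0.25, n = 3 arrays per group, exact permutation p = 0.1). The value of EEF2 minus that of EEF2K was 1.20, 1.45 and 1.26 in WT EVs and 2.14, 2.14 and 2.40 in CD47- EVs, a shift of 0.93 (SD 0.14, n = 3, exact permutation p = 0.1). The value of EEF1B2 minus that of EEF1D was -0.62, -0.70 and -0.81 in WT EVs and -0.99, -0.89 and -0.81 in CD47- EVs, a shift of -0.18 (SD 0.09, n = 3, exact permutation p = 0.1). The groups were separated for the first pairs and met at -0.81 for the last. A two-sided p of 0.1 is the smallest that this exact test can give for 3 arrays against 3, also when adjusted over the 3 pairs, so the test could not call a difference. Intervals that assume a normal spread between arrays (95%) were 0.28 to 1.40 for EEF1A1 minus EEF1A2, 0.61 to 1.25 for EEF2 minus EEF2K and -0.39 to 0.02 for EEF1B2 minus EEF1D. EEF1A2, EEF2K and EEF1B2 were not separated from background. The 3 shifts thus compare EEF1A1, EEF2 and EEF1D with probe sets that may carry little of their mRNA, and none compares 2 mRNAs that were both clear of background. EEF2 and EEF1D 8153449 were themselves above 93.6% and 93.3% of the olfactory receptor probe sets.

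Among the members, the arrays of 5 of 9 probe sets did not overlap between the groups and were higher in CD47- EVs (EEF1A1 on both, EEF1D 8153449, EEF1G and EEF2), and none was lower. Of all probe sets, 7.31% did not overlap and were higher and 5.81% did not overlap and were lower. Among probe sets with 1 symbol, 35 of the 53 called higher were bright ones. Of the 1019 probe sets with 1 symbol whose mean exceeded the 95th percentile of the olfactory receptor probe sets (6.78), 3.43% were called higher, and of the 18441 at or below it 0.0976% were. The 3 members above that level, both probe sets of EEF1A1 and that of EEF1G, were all called. EEF2 (mean 6.75) and EEF1D 8153449 (mean 6.71) lay just below it, and EEF2 was called while EEF1D was not. Probe sets differ in how strongly they bind, so the 5 without a call may be less able to show a change, and this was not tested.

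**Figure D3:**
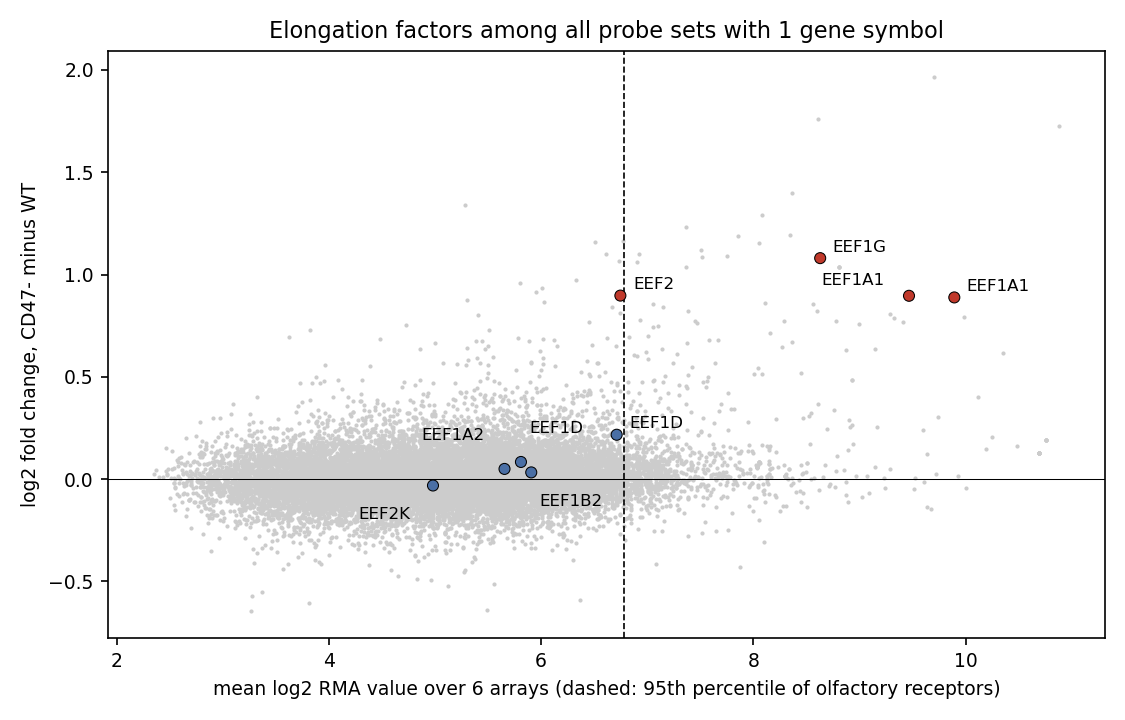
log2 fold change (vertical axis, CD47- minus WT) and mean log2 RMA value of the 6 arrays (horizontal axis) of 19460 probe sets with 1 gene symbol (grey). EEF1A1, EEF1G and EEF2 (red, called) lie between 0.89 and 1.08, and EEF1A2, EEF1B2, EEF1D and EEF2K (blue, not called) lie between -0.03 and 0.22; the dashed line at 6.78 is the 95th percentile of the olfactory receptor probe sets.

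Across the 6 arrays the called members followed each other closely. Pearson's r of the EEF1A1 probe set 8138531 was 0.986 with EEF1G and 0.977 with EEF2, against 0.807 with EEF1D 8153449, 0.38 with EEF1B2, 0.105 with EEF1A2 and -0.257 with EEF2K. These are descriptions over 6 arrays that share the difference between the groups and the preparations. The called members all differ between the groups, so a high r among them follows largely from the calls. So does a lower r with members that were not called. Among 1270 probe sets with 1 symbol and an SD of at least 0.2 over the arrays, the genes most like EEF1A1 were LCP1 (r = 0.996), which encodes an actin-bundling protein of leukocytes, CSNK2B (r = 0.995), a casein kinase subunit, RPL18 (r = 0.995), a ribosomal protein, TUBB (r = 0.991), a tubulin, and TPI1 (r = 0.990), a glycolytic enzyme. Their log2 fold changes were 0.78 for LCP1, 1.04 for CSNK2B, 0.82 for RPL18, 1.04 for TUBB and 0.42 for TPI1. CSNK2B, RPL18 and TUBB were called, while LCP1 and TPI1 did not pass (adjusted p = 0.0507 and 0.114, limma).

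The other genes that act on or beside the elongation factors showed no call, and many of their probe sets were dim. A mean above the olfactory receptor median of 5.45 was found for 1 of 11 probe sets of modification, 4 of 6 of eIF5A and other elongation, and 1 of 9 of termination. It was found for 1 of 4 of mitochondrial elongation, 4 of 9 of input to EEF2K and 3 of 11 of the synthetases. For probe sets in the background range, no call does not show an unchanged mRNA. Of 11 genes that modify eEF1A or EEF2, such as lysine methyltransferases and the enzymes that build diphthamide on EEF2, 0 of 11 probe sets passed with limma in either direction, and none reached an unadjusted p under 0.05, which 5.01% of all probe sets reached while higher and 3.03% while lower. Their median log2 fold change was -0.06, and 0.0042 after the arrays were centered on the olfactory receptors. The smallest p values belonged to the methyltransferase gene EEF1AKMT1 (-0.18) and the diphthamide gene DNAJC24 (-0.14). The list holds 13 genes, and DPH1 and EEF1AKMT4 had no probe set with 1 symbol.

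Of 6 measured genes for eIF5A, its hypusine modification and other GTPases of elongation, all 6 had log2 fold changes above 0, from 0.08 to 0.39, and 0 passed with limma. DHPS, the first enzyme of hypusine synthesis, gave a value of 0.39 on that scale (standard error 0.08, adjusted p = 0.153, limma), and its groups did not overlap. It was the 1 probe set of this list with an unadjusted p under 0.05. Only 19.0% of the olfactory receptor probe sets had a lower mean than DHPS, so it was not separated from background. DOHH, the second enzyme, had a log2 fold change of 0.12. EIF5A and EIF5AL1 had no probe set with 1 symbol.

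Of the 9 genes of termination, ribosome recycling and rescue, 0 of 9 probe sets passed with limma, none had an unadjusted p under 0.05, and the median was -0.0021, or 0.06 with that centering. DENR, a recycling factor, had a log2 fold change of -0.21 and ETF1, the release factor, of 0.13. Of 4 measured mitochondrial elongation factors, 0 passed with limma and 1 had an unadjusted p under 0.05. This was TUFM, the mitochondrial counterpart of eEF1A, at 6.10 ± 0.10 in WT and 6.30 ± 0.08 in CD47- arrays (log2, SD, n = 3 each), a log2 fold change of 0.21 with an adjusted p = 0.573 from limma. GFM1, a counterpart of EEF2, had a log2 fold change of -0.10.

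Of 9 measured genes that bear on the kinase EEF2K or on the phosphorylation of EEF2, among them AMPK, mTOR and phosphatase subunits, 0 passed with limma and none had an unadjusted p under 0.05. PPP2CB and PPP2CA, the catalytic subunits of protein phosphatase 2A, had log2 fold changes of 0.24 and 0.15. Lower means were held by 16.8% and 44.5% of the olfactory receptor probe sets, so neither gene was separated from background. The 3 calmodulin genes had no probe set with 1 symbol. Of 11 probe sets for 10 genes of the synthetase complex and of synthetases that bind eEF1B, 0 passed with limma and 3 had an unadjusted p under 0.05, all in the direction of higher. These were the glutaminyl-tRNA synthetase QARS1 (log2 fold change 0.32), KARS1 (0.21) and IARS1 (0.26). VARS1, which binds eEF1B, had 2 probe sets with identical values and a log2 fold change of 0.03.

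The parts of the translation machinery most like the elongation factors also held calls in the direction of higher. Of 91 probe sets for 58 cytosolic ribosomal protein genes, 8 were higher (8.79%), belonging to 5 genes, with a median of 0.33. Their log2 fold changes ranged from -0.229 to 1.084. At an unadjusted p under 0.05 from limma, 55 of the 91 were higher and 0 were lower, against 5.01% and 3.03% of all probe sets. The groups of 57 of the 91 did not overlap and were higher, against 7.31% of all probe sets. RPL8, RPS28 and RPL18 had log2 fold changes of 0.77, 0.77 to 0.81 over 3 probe sets, and 0.82. The RPS28 probe sets may also match copies of the gene. Of 41 probe sets for 35 initiation factor genes, 1 was higher (2.44%), with a median of 0.09. This was EIF1, a start codon selection factor, with a log2 fold change of 0.86 (adjusted p = 0.0121, limma). Of the 41 initiation factor probe sets, 14 were higher at an unadjusted p under 0.05 (limma), and the groups of 13 did not overlap and were higher. The number called over all related lists, 9 here, was 0 or 1 when any 1 array other than CD47- replicate 1 was left out and 7 without that array. The share was 44.4% for the 9 elongation factor probe sets, which lie on 7 genes, and whether these shares differ was not tested. None of the probe sets in these 2 lists was lower. Probe sets of genes with an annotated TOP start were called higher in 9 of 988 cases (0.911%) and those of genes without one in 34 of 14038 (0.242%), with medians of 0.02 and 0.0023, a split chosen after the fold changes were seen. The 9 include both probe sets of EEF1A1 and that of EEF2, the 34 include EEF1G, and ribosomal protein genes were not set aside. The split thus recounts calls given above, and a link of the TOP motif to the calls was not tested.

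**Figure D4:**
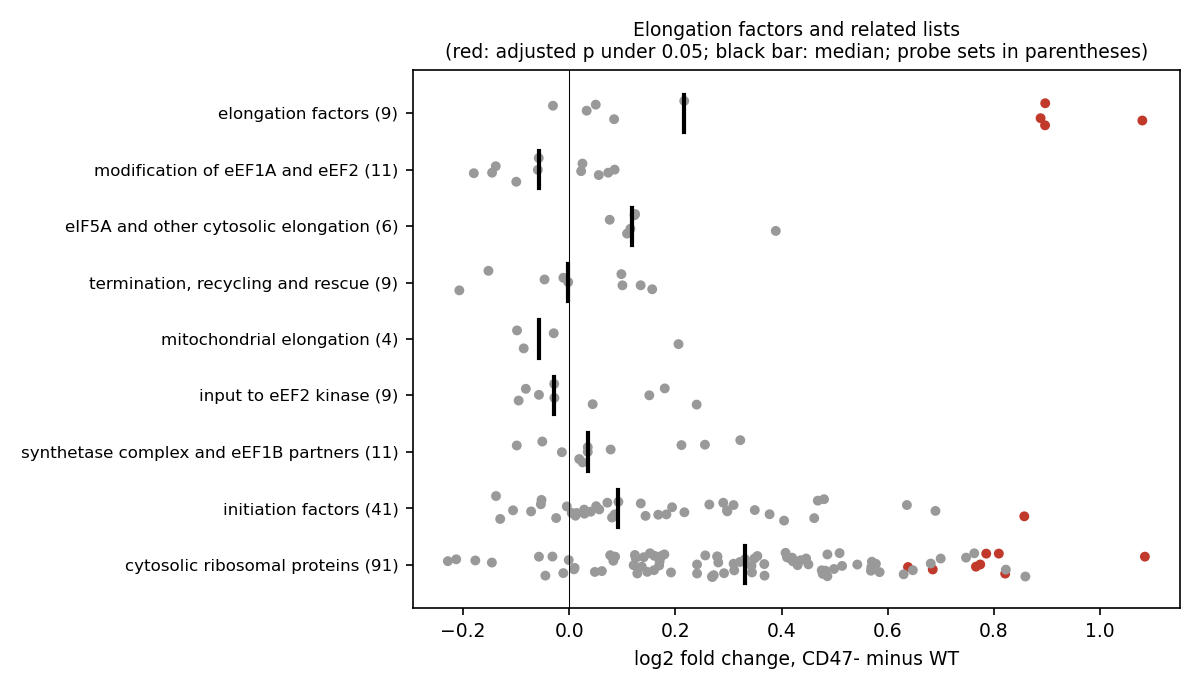
log2 fold change (horizontal axis, CD47- minus WT) of each probe set in the elongation factors and 8 related lists (vertical axis), with called probe sets in red, the others in grey, the median of each list as a black bar and the number of probe sets in parentheses. The elongation factors split into 4 red points from 0.89 to 1.08 and 5 grey points from -0.03 to 0.22.

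The values of the 6 arrays had close distributions, with medians from 5.08 to 5.14 and r from 0.980 to 0.989 between arrays. Of 15 T cell marker genes, 11 had a mean above the olfactory receptor median of 5.45 (PTPRC, ZAP70, CD2 and CD28 did not) and 0 passed with limma. The median level of this list was 5.93 to 5.97 in WT arrays and 6.08 to 6.13 in CD47- arrays, CD3E, CD3G and CD3D had log2 fold changes of 0.37, 0.34 and 0.28, and at an unadjusted p under 0.05 these 3 were higher. The part of this shift in the elongation factor results was not tested. The B cell, myeloid, erythroid, epithelial, fibroblast and liver lists had medians from -0.08 to 0.0043 and no call with limma, with 1 of their 31 probe sets, the fibroblast gene DCN, at an unadjusted p under 0.05. In that order, 2 of 5, 1 of 5, 2 of 3, 4 of 7, 3 of 5 and 3 of 6 of their probe sets also had a mean above the olfactory receptor median. A mean above that median thus does not set T cell genes apart from genes of other cell types. The log2 fold change of CD47 was 0.02 (adjusted p = 0.989, limma) on 1 probe set that lay above 24.4% of the olfactory receptor probe sets, so it does not check the labels.

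**Figure D5:**
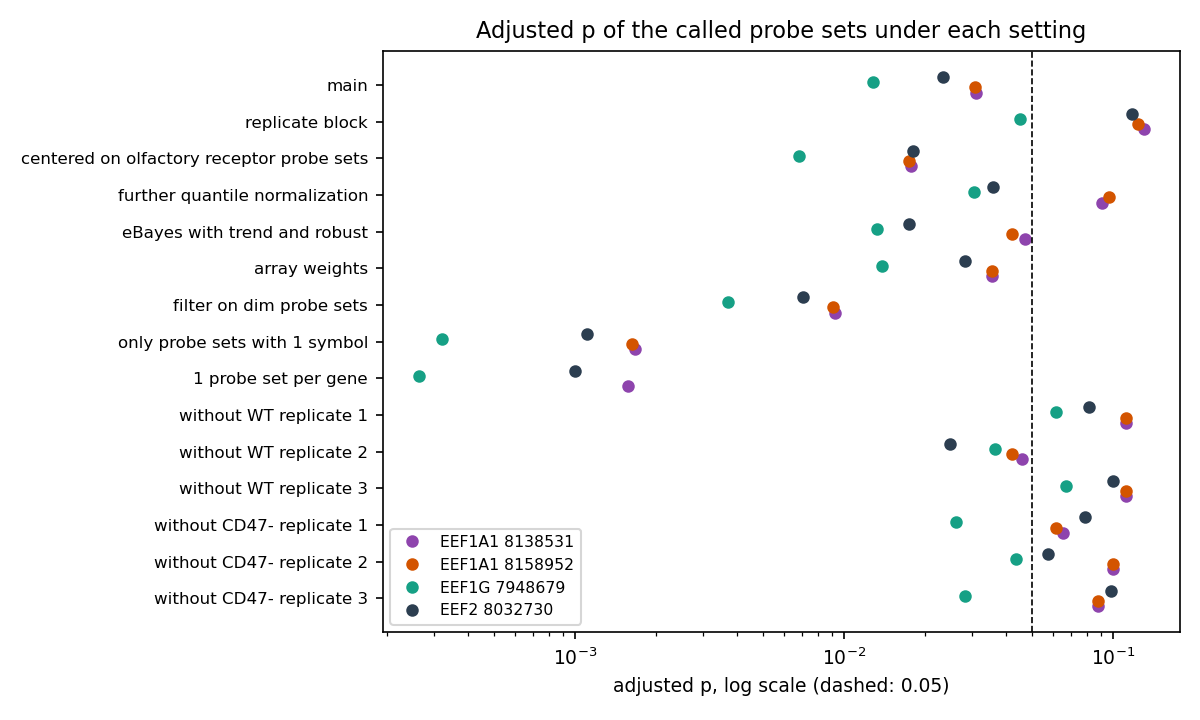
Adjusted p from limma (horizontal axis, log scale; dashed line, 0.05) of the 4 called probe sets (colors) under each way of processing the arrays (vertical axis). EEF1G lies below 0.05 in all but the fits without WT replicate 1 or 3, while EEF2 and EEF1A1 lie above 0.05 in all 5 fits that leave out an array other than WT replicate 2.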

How the data were processed

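RNA of 6 EV samples was hybridized to human gene arrays, 3 from WT and 3 from CD47- cells, grouped by the titles of the samples. The authors' deposited values are log2 values from RMA in Affymetrix Expression Console, per the labels, with background corrected, quantiles normalized and probes summarized per probe set. The sources used here give no tool versions and do not say whether other arrays were normalized with these. The label protocol calls the human array a mouse array once, and names were taken from the annotation of the human one.

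Probe sets were named by the platform annotation, with symbols updated through gene identifiers in a RefSeq table. All 33297 probe sets were tested with limma 3.58.1 in R 4.3.3 (lmFit, eBayes, Benjamini-Hochberg over all probe sets, adjusted p under 0.05), and the step was tested on simulated data. The members, the gene lists and the tests were chosen with earlier results of these data known. Named genes were every member probe set, up to 4 called probe sets per list or the 2 of smallest p, the 5 genes most like EEF1A1, and CD47; IARS1, VARS1, CD3D and DCN were named after their values were seen. The planned pair of EEF1G and EEF1E1 had no EEF1E1 value. The number of arrays limits the precision. Alternatives are those of the closing section. No protein sequences were used here.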

Additional observations from a re-analysis of the deposited data

How the results depend on the processing

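With 3 arrays per group, the calls rest on few arrays and on how many probe sets are tested together. The 4 called probe sets stayed called after centering on the olfactory receptor probe sets, with another variance model, with array weights, among brighter probe sets and among probe sets with 1 symbol, and the 3 of them tested with 1 probe set per gene did too. All 4 kept a log2 fold change above 0.7 in every fit. Only centering, array weights, quantile normalization and leaving out an array could move that value. The block, the variance model and the choice of probe sets could not. Their count was 2 after a further quantile normalization, 0 at an adjusted p under 0.01 and 0 to 4 when 1 array was left out (0 without WT replicate 1 or 3, 1 without any CD47- replicate). With the replicate number as a block it was 1, EEF1G, and in the related lists 0. Deviations from the group mean had an r of 0.008, -0.003 and -0.043 between same-numbered arrays. Between arrays of different number and group it was -0.04 to 0.042. Values this near 0 cannot decide whether the numbers pair the samples, so the fit with the block is not set aside. The block left the 3 pair differences at 0.84, 0.93 and -0.18. No member was called lower in any fit.

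The related lists held 9 probe sets called higher. The count was 18 after centering on the olfactory receptor probe sets, 22 among brighter probe sets, 27 among probe sets with 1 symbol, 22 with 1 probe set per gene and 0 (without WT replicate 3) to 7 (without CD47- replicate 1) when 1 array was left out. The settings with brighter, 1-symbol and 1 per gene probe sets tested fewer of them. When 1 array was left out, the pair differences ranged from 0.67 to 0.95 for EEF1A1 minus EEF1A2, 0.84 to 1.00 for EEF2 minus EEF2K and -0.23 to -0.14 for EEF1B2 minus EEF1D. The log2 fold change of EEF1B2 ranged from -0.0122 (without WT replicate 3) to 0.0778 (without WT replicate 1) and was -0.0034 without CD47- replicate 3. That of EEF2K ranged from -0.0918 (without CD47- replicate 1) to 0.0062 (without CD47- replicate 2) and was 0.031 after the centering, and none of these was called. Where no cause is given, the cause was not tested.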
